A study of Mus musculus with 7 samples.

Results

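The 9 genes described here are Dcn, Bgn, Aspn, Lum, Fmod, Prelp, Omd and Ogn, which encode small leucine-rich proteoglycans and their close relatives, and Dpt, which encodes dermatopontin. They were chosen by gene symbol in the array annotation, each through its probe set of highest mean over all 7 arrays, and make up 9 of the 19938 genes that had a probe set with a single symbol. All 9 were measured, each by 1 probe set. RNA came from the extensor digitorum longus, a fast-twitch hindlimb muscle, of 4 wild type mice and 3 mice labelled AMPKα1α2 double knockout, with 1 array per sample. AMPK is a kinase that senses low cellular energy, and α1 and α2 are its catalytic subunits. Mice of both genotypes were of a C57/Bl6 and SV129 mix. The labels give no age, sex, exercise state or driver of the deletion. The comparison asks how transcripts of the muscle differ between the genotypes.

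Small leucine-rich proteoglycans are secreted proteins whose curved core of leucine-rich repeats binds collagen. Many carry chondroitin, dermatan or keratan sulfate chains. They set the diameter and spacing of collagen fibrils, and several also hold growth factors such as TGF-β in the matrix. In skeletal muscle they are made mainly by fibroblasts of the connective tissue sheaths, by fibro-adipogenic progenitors and by tendon cells. Dermatopontin is no leucine-rich repeat protein, but it binds decorin and TGF-β and speeds collagen fibril assembly.

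The labelled fast muscle was set beside fibre type genes: the 14 measured fast fibre genes had mean log2 values between 12.17 and 14.23 and the 8 slow fibre genes between 7.41 and 10.24, while the array medians lay between 7.501 and 7.584. Probe sets differ in how brightly they bind, so these levels are only a rough description. Of the targeted genes, Prkaa1 differed by -0.51 ± 0.09 (moderated SE) and Prkaa2 by -0.21 ± 0.07 log2 units between knockout and wild type, with adjusted p of 0.12 and 0.39 in limma. All Prkaa1 values in the knockout (8.80 to 9.19) lay below those in wild type (9.48 to 9.61), while the Prkaa2 groups overlapped. The sources used here do not name the deleted exons, and probes outside them do not report the deletion. Knockout replicate 3 had the lowest limma array weight, 0.294 against 0.765 to 1.99 in the other arrays.

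Dermatopontin, lumican and biglycan transcripts had their 3 knockout values above all 4 wild type values, and fibromodulin averaged lower in the knockout. The log2 differences were 0.42 for Dpt, 0.71 for Lum, 0.23 for Bgn and -0.20 for Fmod. The other 5 members differed by between 0.02 and 0.14. None of the 9 passed an adjusted p under 0.05 in limma after Benjamini-Hochberg correction for every probe set tested, against 0.0251% of all genes. At an unadjusted p under 0.05 there were 3 members higher and 1 lower, against a background of 3.93% higher and 6.69% lower over all genes. Without knockout replicate 2 or without knockout replicate 3 the 3 higher members became 1. Bgn overlapped between the genotypes when the arrays were quantile normalized further or centred on their medians, while Dpt and Lum did not. The 1 lower member became 0 when wild type replicate 2, 3 or 4 was left out, and likewise for knockout replicate 1 or 3.

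**Figure D1:**
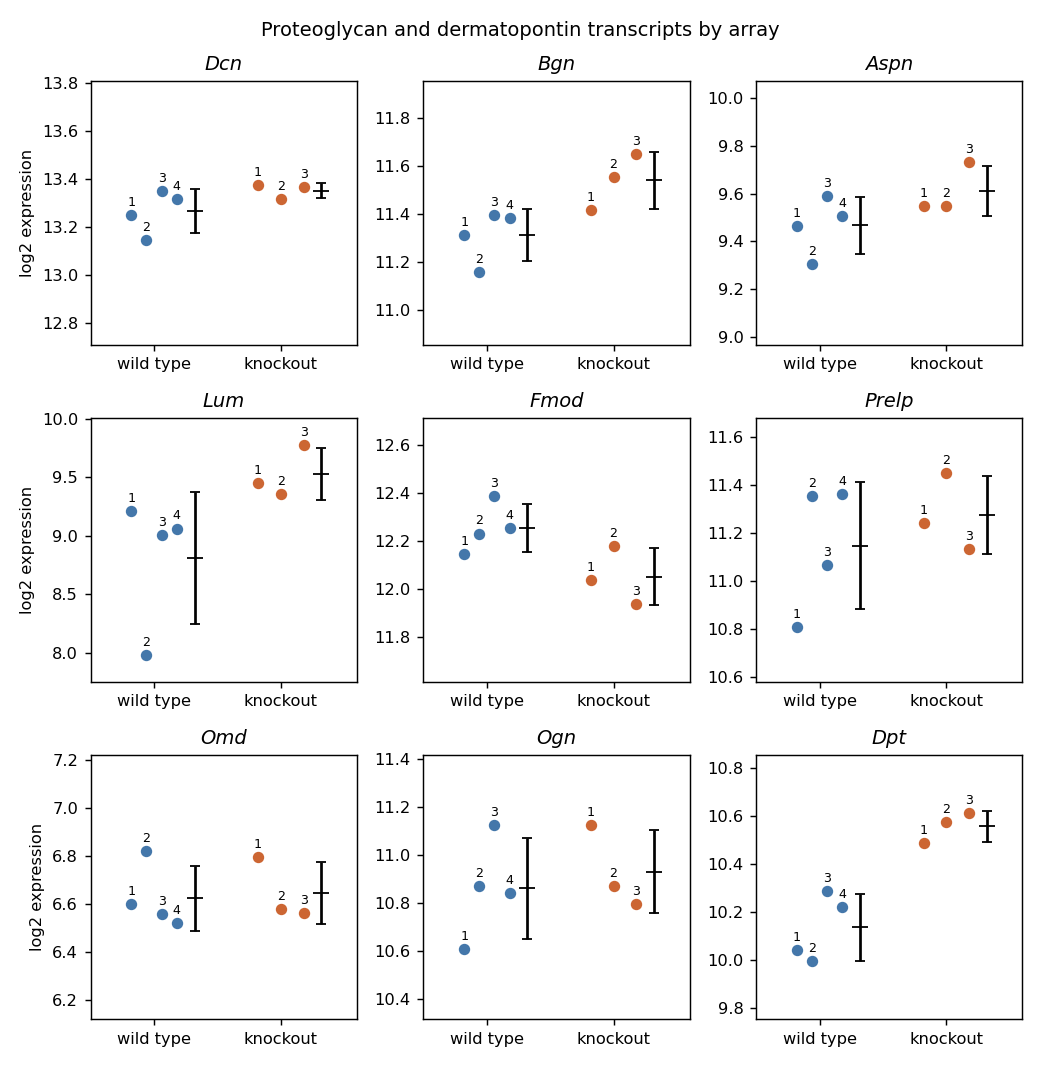
Log2 expression (vertical axis, a separate range in each panel) of the 9 genes in the 4 wild type and 3 knockout arrays. Points are single arrays labelled by replicate number, and bars give the mean and SD of each group. The 3 knockout points lie above all wild type points for Bgn, Lum and Dpt (for Bgn not after further quantile normalization or median centring), and wild type replicate 2 lies far below the other arrays for Lum.

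Dpt had the smallest p of the 9, ranking 167 among the 19938 genes. Its log2 values were 10.04, 9.99, 10.29 and 10.22 in wild type replicates 1 to 4 and 10.48, 10.57 and 10.61 in knockout replicates 1 to 3. Every knockout array lay above every wild type array, by at least 0.20 log2 units. The means were 10.13 ± 0.14 (SD, n = 4) and 10.56 ± 0.07 (SD, n = 3), which makes a log2 difference of 0.42 ± 0.08 (moderated SE) or 1.34-fold. The 95% interval ran from 0.23 to 0.61, and the adjusted p in limma was 0.14. Leaving out any 1 array kept the difference between 0.37 and 0.47.

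Lum, which encodes the keratan sulfate proteoglycan lumican, showed the widest spread. Its log2 values were 9.21, 7.98, 9.001 and 9.06 in wild type replicates 1 to 4 and 9.45, 9.35 and 9.78 in knockout replicates 1 to 3. Wild type replicate 2 stood more than 1 log2 unit below the remaining 3 wild type arrays, and those 3 still lay below all knockout arrays. Over all 7 arrays the means were 8.81 ± 0.56 (SD, n = 4) and 9.53 ± 0.22 (SD, n = 3), a difference of 0.71 ± 0.30 (moderated SE) with a limma adjusted p of 0.47. Without wild type replicate 2 the difference was 0.44 ± 0.12 with a limma adjusted p of 0.40.

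Bgn encodes biglycan, the closest relative of decorin, which binds TGF-β and the dystrophin complex and, when freed from the matrix, Toll-like receptors 2 and 4. Its log2 values were 11.31, 11.16, 11.40 and 11.38 in wild type replicates 1 to 4 and 11.42, 11.56 and 11.65 in knockout replicates 1 to 3. The groups did not overlap, but the lowest knockout array was only 0.018 above the highest wild type array. After further quantile normalization or centring on array medians the Bgn groups overlapped. The difference was 0.23 ± 0.08 (moderated SE), or 1.17-fold, with a 95% interval from 0.045 to 0.41 and a limma adjusted p of 0.39. Non-overlapping groups with the knockout higher were found for 3 of the 9 members and for 3.29% of all genes, and with the knockout lower for 0 of 9 and 5.33%. After either of those scalings the 3 of 9 became 2, Dpt and Lum.

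Fmod encodes fibromodulin, which steers collagen fibril growth and cross-linking, most of all in tendon. Its log2 values were 12.15, 12.23, 12.39 and 12.25 in wild type replicates 1 to 4 and 12.04, 12.18 and 11.94 in knockout replicates 1 to 3. Knockout replicate 2 lay just above wild type replicate 1, so the groups overlapped, while the other 2 knockout arrays lay under the whole wild type range. Without wild type replicate 1 or without knockout replicate 2 the groups did not overlap. The difference was -0.20 ± 0.07 (moderated SE), with a 95% interval from -0.38 to -0.027 and a limma adjusted p of 0.42. It was the only member of the 9 with a negative difference over all 7 arrays.

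The promoters of Dpt and Bgn, whose groups did not overlap in the values as deposited, and of Fmod, the member with the opposite sign, are shown as the 250 bases before the RefSeq transcript start (GRCm38.p6), 5′ to 3′ on the plus strand, with motif matches in capitals. The windows lie at chr1:164796413-164796662 for Dpt, chrX:73483351-73483600 for Bgn and chr1:134037004-134037253 for Fmod.
Dpt: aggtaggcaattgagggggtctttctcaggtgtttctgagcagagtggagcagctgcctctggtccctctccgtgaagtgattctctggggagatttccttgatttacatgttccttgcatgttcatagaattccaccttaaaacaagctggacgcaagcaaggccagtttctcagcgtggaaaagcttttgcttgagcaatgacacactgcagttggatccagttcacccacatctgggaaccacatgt
Bgn: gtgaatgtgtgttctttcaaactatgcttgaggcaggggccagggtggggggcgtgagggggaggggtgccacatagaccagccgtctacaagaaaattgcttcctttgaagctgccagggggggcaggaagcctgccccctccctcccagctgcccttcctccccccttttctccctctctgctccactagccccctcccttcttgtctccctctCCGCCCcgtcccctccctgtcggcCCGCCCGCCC
Fmod: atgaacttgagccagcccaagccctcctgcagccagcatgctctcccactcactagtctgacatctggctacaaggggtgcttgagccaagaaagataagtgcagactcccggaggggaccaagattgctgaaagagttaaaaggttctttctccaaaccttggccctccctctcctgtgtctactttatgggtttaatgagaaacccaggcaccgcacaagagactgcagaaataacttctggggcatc
The capitals in Bgn are 3 matches to the Sp1 motif GGGCGG on the minus strand, starting 34, 10 and 6 bases before the start site, the last 2 overlapping. Of the 9 members, 7 had a promoter in the RefSeq table, and Dcn and Lum are named only. In the 300-base windows, which add 50 bases after the start, GGGCGG on either strand was in 1 of 7 member promoters (Bgn) and 35.7% of 32851 promoters. TATAAA was in 3 of 7 (Dpt, Aspn and Ogn) and 13.6%. The Dpt match begins 13 bases into the transcript as annotated and so is not in the printed stretch. The Smad motif CAGACA was in 1 of 7 (Prelp) and 21.0%, and the AP-1 motif TGANTCA in 0 of 7 and 7.81%. The printed Bgn stretch was 64.4% G and C, Dpt 48.8% and Fmod 51.2%, where the median over all promoters was 52.4%. A match describes letters in a window and shows no binding.

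Decorin and asporin are the nearest relatives of biglycan. Dcn, whose product binds type I collagen and sequesters TGF-β, read 13.25, 13.14, 13.35 and 13.31 in wild type replicates 1 to 4 and 13.37, 13.31 and 13.37 in knockout replicates 1 to 3. Knockout replicates 1 and 3 lay just above the wild type range, and knockout replicate 2 lay inside it, below wild type replicate 3. Dcn differed by 0.09 ± 0.05 (moderated SE), with a 95% interval from -0.040 to 0.21. Without wild type replicate 2 the Dcn difference was 0.046. Aspn, whose product has an aspartate-rich end and competes with decorin for collagen, read 9.47, 9.31, 9.59 and 9.51 in wild type replicates 1 to 4 and 9.55, 9.55 and 9.73 in knockout replicates 1 to 3. Here too wild type replicate 3 fell among the knockout arrays. The Aspn difference was 0.14 ± 0.08 (moderated SE), with a 95% interval from -0.039 to 0.33. It was 0.083 without knockout replicate 3 and 0.090 without wild type replicate 2. The limma adjusted p was 0.65 for Dcn and 0.59 for Aspn.

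The remaining leucine-rich repeat members overlapped widely between the genotypes. Prelp, which anchors basement membranes to the connective tissue, read 10.81, 11.35, 11.06 and 11.36 in wild type replicates 1 to 4 and 11.24, 11.45 and 11.13 in knockout replicates 1 to 3, a difference of 0.13 ± 0.15 (moderated SE). Its 4 wild type arrays spread over a wider range than the gap between the group means. Leaving out wild type replicate 1 took the Prelp difference to 0.015, and leaving out knockout replicate 2 took it to 0.040; without any other array it lay between 0.10 and 0.20. Ogn, which encodes osteoglycin or mimecan, read 10.61, 10.87, 11.12 and 10.84 against 11.13, 10.87 and 10.79, a difference of 0.07 ± 0.13 (moderated SE). Omd, which encodes the bone-enriched osteomodulin, read 6.60, 6.82, 6.56 and 6.52 against 6.80, 6.58 and 6.56, a difference of 0.02 ± 0.09 (moderated SE). All Omd values lay below the median of every array, where signal can be compressed towards background. The limma adjusted p was 0.82, 0.90 and 0.96 for Prelp, Ogn and Omd, and the 95% intervals ran from -0.23 to 0.49, from -0.24 to 0.38 and from -0.19 to 0.23. The sign of Ogn turned when replicate 1 of either genotype was left out. The sign of Omd turned when knockout replicate 1 or wild type replicate 3 or 4 was left out.

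**Figure D2:**
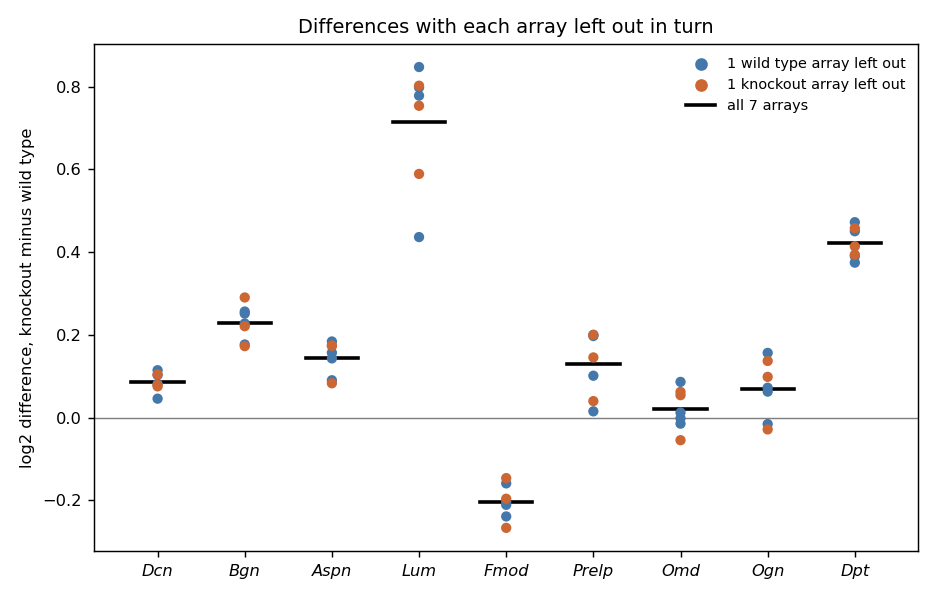
Log2 difference, knockout minus wild type (vertical axis), of the 9 genes with all 7 arrays (black bars) and with 1 array left out in turn (blue, a wild type array; orange, a knockout array). Dpt stays between 0.37 and 0.47 and Lum is at 0.44 without wild type replicate 2, while the points of Ogn and Omd fall on both sides of 0.

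Of the 9 members 8 had a difference above 0, where 46.7% of all genes did, and their median difference was 0.13 against -0.0049 over all genes. Leaving out 1 array kept the member median between 0.081 (without wild type replicate 1) and 0.16, and left between 6 members (without knockout replicate 1) and 8 above 0. By array, the mean of the 9 members stood 0.18, 0.17 and 0.19 log2 units above the wild type mean in knockout replicates 1 to 3. In wild type replicates 1 to 4 it stood at -0.049, -0.11, 0.098 and 0.065. Of the 9 members, 4 had their highest value in knockout replicate 3.

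**Figure D3:**
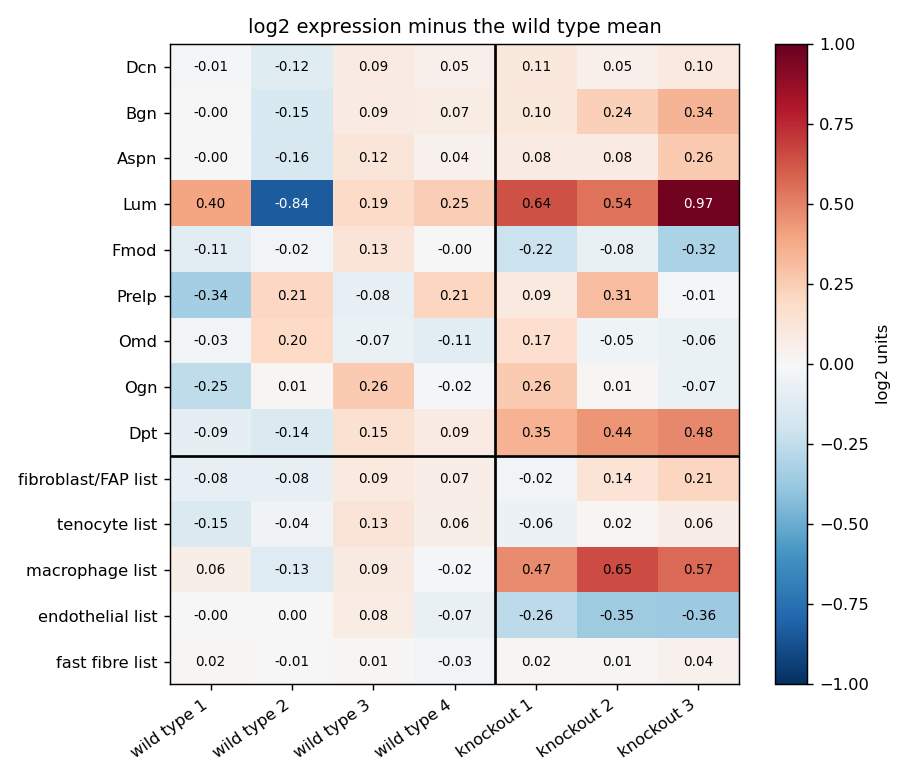
Log2 expression minus the wild type mean in each array (columns) for the 9 genes and, below the line, for the mean of 5 cell type marker lists (rows); colour and printed value give log2 units. Dpt runs from 0.35 to 0.48 in the knockout arrays and Lum is at -0.84 in wild type replicate 2, while the macrophage list is above and the endothelial list below the wild type mean in all 3 knockout arrays.

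The members did not vary as one block over the arrays. Dcn, Bgn, Lum, Aspn and Dpt, grouped after their values were seen, varied together, with Pearson's r between 0.78 and 0.93 in their 10 pairs (Spearman's rho 0.59 to 1.00, n = 7 arrays). The other 26 pairs ran from -0.59 to 0.43. The closest pair was Bgn and Dpt, which ordered the 7 arrays identically: r was 0.93 (exact permutation p = 0.00060, adjusted over 36 pairs 0.021) and rho 1.00 (exact permutation p = 0.00040, the smallest these permutations can give, adjusted 0.014). Without the 2 arrays farthest from the Bgn median, r was 0.90, and after subtracting each genotype's mean it was 0.85. The Bgn and Dpt pair was the only 1 of the 36 whose r passed an adjusted exact permutation p under 0.05, two-sided. These permutations ran freely over all 7 arrays, so p also reflects the genotype difference that both genes share. The r left after subtracting genotype means was not tested. Across the 10 pairs r ran from 0.55 to 0.91 after subtracting genotype means. The 2 arrays farthest from the median of the pair's first-listed gene were also left out, and these differ between pairs. Across the 10 pairs r then ran from -0.032 to 0.90 and stayed above 0.5 in 6 of 10. In the remaining 4 it was lower, but so few arrays are left that these values do not separate the pairs. All pairs share the same 7 arrays, and 5 of the 9 members, these same 5, had their lowest value in wild type replicate 2.

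The genes whose pattern over the 7 arrays was most like the mean of the members' standardized values were Ctsh, Tlr7, Cpq, Serinc2 and Mettl21c, with Pearson's r of 0.98, 0.97, 0.97, 0.96 and 0.95 (Spearman's rho 0.93, 0.82, 0.86, 0.86 and 0.96). They were picked as the 5 highest among all non-member genes over 7 arrays that share the genotype split, so these values carry no test. Ctsh encodes the lysosomal protease cathepsin H and differed by 0.26 ± 0.08 (moderated SE). Tlr7, an endosomal sensor of RNA, differed by 0.39 ± 0.10, and Cpq, a carboxypeptidase, by 0.32 ± 0.11. All Tlr7 values lay below the median of every array, as those of Omd did. Serinc2 differed by 0.40 ± 0.14 and Mettl21c, a muscle lysine methyltransferase, by 0.55 ± 0.21.

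Several members lie side by side in the genome, by gene order in the RefSeq table of GRCm38.p6. Dcn and Lum are neighbours on chromosome 10 and are followed by Kera and Epyc, Optc, Prelp and Fmod lie in a row on chromosome 1, and Ecm2, Aspn, Omd and Ogn on chromosome 13. Their differences are given side by side. Beside Lum at 0.71 and Dcn at 0.09, Kera, a keratan sulfate proteoglycan best known from the cornea, was at -0.18 ± 0.18 and Epyc, of cartilage, at -0.08 ± 0.04. Fmod at -0.20 stood between Prelp at 0.13 and genes outside the family, with Optc at 0.01 ± 0.05. Aspn, Omd and Ogn were at 0.14, 0.02 and 0.07, and Ecm2 at 0.05 ± 0.10. Epyc, Optc and Omd lay below the median of every array, where signal can be compressed towards background. Whether neighbours differ from each other was not tested.

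Other genes of the family gave a smaller median. Of 10 listed, 9 were measured: 4 were above and 5 below wild type, the median was -0.014, 0 passed the adjusted limma test and 1 was higher at an unadjusted p under 0.05. All values of Epyc, Optc and Podnl1 lay below the median of every array, where signal can be compressed towards background. Among the members only Omd lay there, so the medians of the family lists are not strictly comparable. With 1 array left out the median ran from -0.045 (without knockout replicate 3) to 0.0067 (without knockout replicate 2), and it was also above 0 without wild type replicate 2. The 1 gene at an unadjusted p under 0.05 was Podn, encoding podocan, which read 9.49, 9.31, 9.46 and 9.62 in wild type replicates 1 to 4 and 9.72, 9.74 and 9.89 in knockout replicates 1 to 3. Its difference was 0.31 ± 0.08 (moderated SE) with a limma adjusted p of 0.25, and the groups did not overlap. Chad, encoding the cartilage protein chondroadherin, differed by -0.25 ± 0.14 (moderated SE) with a limma adjusted p of 0.61.

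**Figure D4:**
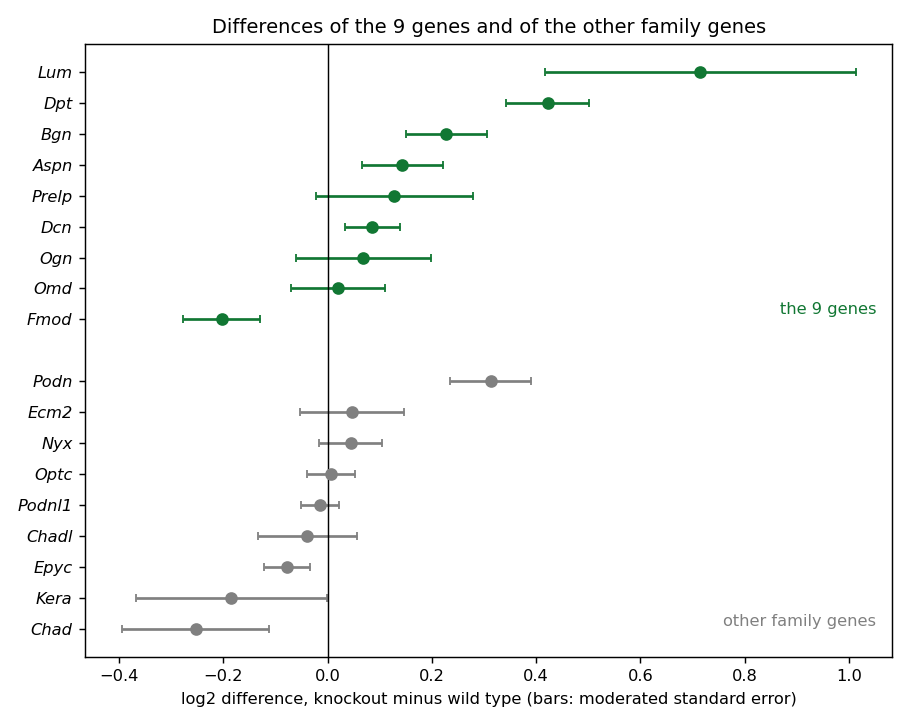
Log2 difference, knockout minus wild type (horizontal axis), with the moderated standard error as bars, for the 9 genes (green) and 9 other measured genes of the family (grey). Lum, Dpt and Bgn lie farthest to the right among the 9 and Fmod alone lies left of 0; Podn at 0.31 leads the other family genes.

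Genes that build the sugar chains had a median near that of all genes. Of 30 measured genes for the linker, chondroitin, dermatan and keratan sulfate chains, 13 were above and 17 below wild type, with a median of -0.016. Without knockout replicate 2 the median was 0.0063, and without any other array it lay between -0.026 and -0.0045. None passed the adjusted limma test and 1 was higher at an unadjusted p under 0.05. That was Chst11, a chondroitin 4-O-sulfotransferase, at 0.30 ± 0.11 (moderated SE, limma adjusted p 0.41). Chsy1, a chondroitin synthase, was at 0.18 ± 0.08 (limma adjusted p 0.48).

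Of 26 measured genes for the collagen fibril and its partners, 17 were above wild type and the median was 0.11. The 9 below included the type I collagen genes Col1a1 at -0.28 ± 0.26 and Col1a2 at -0.20 ± 0.21, while Col3a1 was at 0.41 ± 0.20. With knockout replicate 1, 2 or 3 left out the median was 0.18, 0.059 or 0.046. None passed the adjusted limma test, and 3 higher and 0 lower had an unadjusted p under 0.05. Loxl1, which cross-links elastin and collagen, read 9.20, 8.98, 9.25 and 9.23 in wild type replicates 1 to 4 and 9.38, 9.59 and 9.61 in knockout replicates 1 to 3. Its groups did not overlap, with a difference of 0.36 ± 0.08 (moderated SE) and a limma adjusted p of 0.23. Fn1, fibronectin, was at 0.55 ± 0.16 (moderated SE, limma adjusted p 0.31), also without overlap.

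The ligands and receptors that these proteoglycans bind were read as a further list. Of 32 measured, 22 were above wild type and the median was 0.056. Leaving out knockout replicate 2 made it 0.026, and leaving out knockout replicate 3 or wild type replicate 2 made it 0.037. None passed the adjusted limma test, while 6 higher and 1 lower had an unadjusted p under 0.05. Tlr4, the Toll-like receptor engaged by free biglycan, was at 0.59 ± 0.14 (moderated SE, limma adjusted p 0.25). Kdr, the VEGF receptor to which decorin binds and which is also an endothelial marker, was at -0.67 ± 0.17 (moderated SE, limma adjusted p 0.26). For both the groups did not overlap. Tlr4 read 7.35 in wild type replicate 1 and 7.44 in wild type replicate 4. These values lay below the median of every array, where signal can be compressed towards background.

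Of 16 measured proteases that cut these proteoglycans and their inhibitors, 11 were above wild type and the median was 0.14. With knockout replicate 1 or 2 left out the median was 0.27 or 0.042. None passed the adjusted limma test, and 5 higher and 1 lower had an unadjusted p under 0.05. Mmp12, the macrophage elastase, read 7.19, 7.31, 7.24 and 7.34 against 8.31, 8.36 and 7.80, without overlap and with a difference of 0.89 ± 0.13 (moderated SE, limma adjusted p 0.096). All wild type values of Mmp12 lay below the median of every array, where signal can be compressed towards background. Adamts8, a metalloprotease with thrombospondin repeats, was at -0.61 ± 0.13 (moderated SE, limma adjusted p 0.18).

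**Figure D5:**
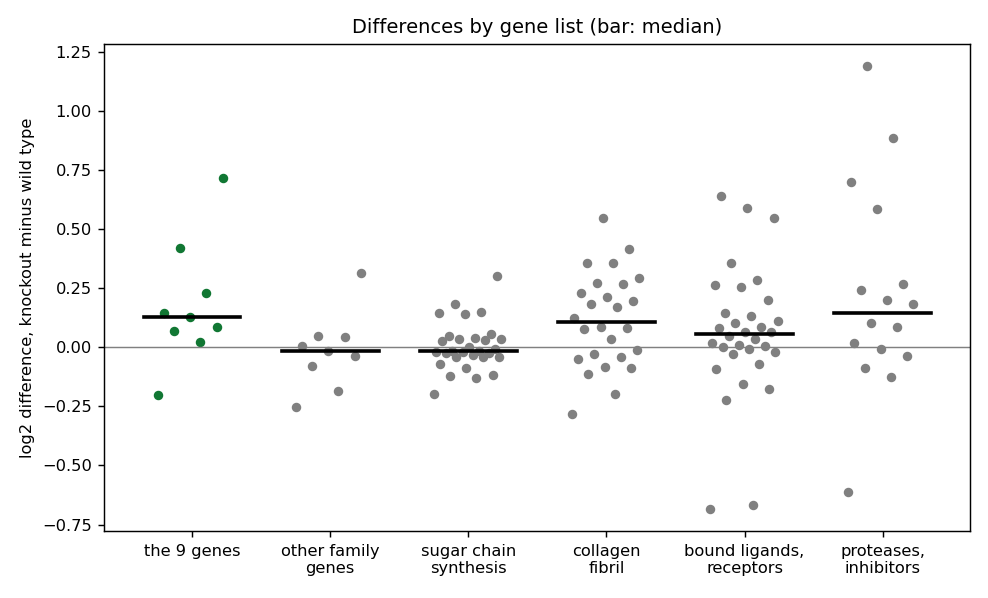
Log2 difference, knockout minus wild type (vertical axis), of single genes (points; sideways offsets only separate them) in the 9 genes and 5 related lists, with the median of each list as a bar. The medians are 0.13 for the 9 genes, -0.014 for other family genes, -0.016 for sugar chain synthesis, 0.11 for the collagen fibril, 0.056 for ligands and receptors and 0.14 for proteases and inhibitors.

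Marker genes of the cells that can make these proteins, and of other cells of the muscle, were read beside the members. In whole muscle RNA, a different number of cells of a type and a different amount of RNA per cell cannot be told apart. The 19 measured fibroblast and fibro-adipogenic progenitor markers had a median of 0.12, with 13 above wild type and none passing the adjusted limma test (at an unadjusted p under 0.05, 2 higher and 1 lower). With knockout replicate 1 or 3 left out their median was 0.19 or 0.032, and with wild type replicate 2 left out 0.076. The log2 of their summed level ran from 14.16 to 14.35 in wild type and from 14.22 to 14.54 in knockout arrays. Pdgfra, the receptor that marks fibro-adipogenic progenitors, read 9.26, 9.24, 9.52 and 9.58 against 9.78, 9.94 and 10.07, without overlap and at 0.53 ± 0.11 (moderated SE, limma adjusted p 0.16). In the same list 6 markers were below wild type, and the 1 lower at an unadjusted p under 0.05 was Dpp4. Dpp4 was at -0.33 ± 0.12 (limma adjusted p 0.41). Its knockout values lay below all wild type values as deposited, but overlapped them after further quantile normalization or median centring. The 10 tendon cell markers had a median of -0.064, with 0 passing in limma, 1 higher and 1 lower with an unadjusted p under 0.05, and summed levels from 13.24 to 13.47 and from 13.35 to 13.55. The tendon cell median turned to 0.015 without wild type replicate 3 and to 0.034 without knockout replicate 1, and leaving out wild type replicate 1 or knockout replicate 3 made it -0.12 or -0.10. Among the tendon cell markers the 1 higher was Cilp, a matrix protein of cartilage and tendon, at 0.85 ± 0.15 (moderated SE, limma adjusted p 0.13). The 1 lower was Mkx, at -0.23 ± 0.08 (limma adjusted p 0.39). Apart from Cilp these markers ran from -0.37 (Fibin) to 0.12 (Thbs4), and 6 of the 10 were below wild type.

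Of 14 macrophage markers, 13 were above wild type and the median was 0.61. Summed levels ran from 12.32 to 12.48 in wild type and from 13.04 to 13.17 in knockout arrays. In limma 2 rose at an adjusted p under 0.05, among them the lysozyme gene Lyz2 by 0.94 ± 0.05 (moderated SE, adjusted p 0.0088). At an unadjusted p under 0.05 in limma, 11 macrophage markers were higher and 0 lower. All 11 measured endothelial markers were below wild type, with a median of -0.32, summed levels from 13.04 to 13.20 and from 12.73 to 12.84, and Cdh5, the endothelial cadherin, at -0.32 ± 0.06 (limma adjusted p 0.12). The median was -0.19 over 11 pericyte and smooth muscle markers (Notch3 -0.29 ± 0.05), 0.0067 over 8 Schwann cell markers (Ncam1 1.01 ± 0.14) and -0.15 over 8 adipocyte markers (Fabp4 -0.34 ± 0.10). Ncam1 stood apart from the other Schwann cell markers, which ran from -0.048 (Sox10) to 0.076 (Cdh19). The median was 0.093 over 8 satellite cell markers (Des 0.14 ± 0.04), 0.0058 over 14 fast fibre genes (Mylpf 0.14 ± 0.06) and 0.59 over 8 slow fibre genes (Tnni1 1.00 ± 0.17). Des averaged 13.41 over all arrays, inside the range of the fast fibre genes (12.17 to 14.23), and its cell source was not tested. The other satellite cell markers ran from -0.017 (Chrdl2) to 0.30 (Vcam1), with Pax7 at 0.044. With 1 array left out, the pericyte and smooth muscle median reached -0.12 (without wild type replicate 2), the adipocyte median -0.062 (without knockout replicate 1) and -0.25 (without knockout replicate 3), and the Schwann cell median -0.031 (without knockout replicate 3). The fast fibre median fell on both sides of 0, from -0.011 (without wild type replicate 2) to 0.016 (without wild type replicate 1). In these last 7 lists (endothelial to slow fibre) 0 genes passed the adjusted limma test. At an unadjusted p under 0.05 there were 0 higher and 8 lower endothelial, 0 and 5 pericyte and smooth muscle, 1 and 0 Schwann, 0 and 3 adipocyte, 2 and 0 satellite cell, 0 and 0 fast fibre and 6 and 0 slow fibre genes. The part of any of these cell types in the values of Dpt, Lum, Bgn and Fmod was not tested.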

How the data were processed

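The values were those of 1 table the authors deposited, with a log2 expression value for 28856 probe sets on 7 single-colour arrays; the log base was inferred, since values ran from 4.41 to 14.65 and a natural log of a 16-bit scan cannot pass 11.09. RNA was extracted with TRIzol and, per the labels' protocols, biotin-labelled with Ambion's WT Expression Kit. How the authors corrected background, normalized and summarized, and on which build, is unknown from the sources used here, and no further scaling was applied. Precision is limited by the number of arrays. The columns left unused numbered 0.

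GEO's platform annotation gave 1 symbol to 21789 probe sets, several to 1621 and none to 5446. Symbols were checked by gene identifier against RefSeq (GRCm38.p6), where 21698 matched and 0 changed. The 21789 probe sets were fitted with limma 3.58.1 (lmFit, eBayes; R 4.3.3), knockout minus wild type with no covariate, with Benjamini-Hochberg adjustment and a threshold of 0.05, and read for 19938 genes. Values after ± are moderated standard errors unless marked SD. Nothing in the labels says that the samples came from separate litters or days; the design counts mice. Exact permutations (two-sided) were used for correlations, with scipy 1.17.1 for adjustment. The fit was tested on simulated data. Gene names in the lists that RefSeq no longer uses were looked up among its synonyms.

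The members and lists were chosen with earlier results of these data known. The genes named were the 9 members, the 2 non-members with the smallest p in each pathway list, 1 in each cell type list and the 5 most like the members' mean. Prkaa1 and Prkaa2, as the targeted genes, and Kera, Epyc, Optc and Ecm2, as neighbours of members, were named outside this rule. So were further genes of the lists, such as Mkx and Col1a1, given to show how far a list spread or how dim its genes were. Alternatives were each array left out, the replicate block, array weights, a trended robust prior, further quantile normalization, centring on array medians, dropping dim probe sets, averaging a gene's probe sets, and testing all probe sets.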

Additional observations from a re-analysis of the deposited data

Results flagged for a closer look

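In wild type, Lum at 7.98 in replicate 2 lay far from the other 3 arrays, which ran from 9.001 to 9.21; the gap was 0.832 of the range, where Dixon's limit for 4 samples is 0.829. Loxl1 was marked in the same array, at 8.98 against 9.20 to 9.25, with a gap of 0.830 of the range. These were 2 of 34 genes looked at in the wild type group, the genes named by the rule above, and chance marks about 1 group in 20. Both genes are also listed with the difference between genotypes in the report, and Lum is given there without this array.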

How the results depend on the processing

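All 9 members missed the adjusted limma threshold under every alternative run, with a lowest adjusted p of 0.088 (Dpt with dim probe sets filtered out). Of 134 member differences recomputed, 128 kept their direction and 6 turned. Ogn ran from -0.029 to 0.16 with 1 array left out, and Omd from -0.055 to 0.086. In the fit with the replicate number as a block, wild type replicate 4 has no partner and adds nothing to the difference, so the differences equal those without that array. The block gave -0.015 for Omd, 4 members higher and 0 lower with an unadjusted p under 0.05, and turned no other member's sign; the adjusted calls over all genes went from 5 to 0, as they also did without wild type replicate 4 and no block. Deviations of same-numbered arrays from their group means correlated with r of 0.29, 0.16 and -0.20 across genes. Knockout replicates 1 and 2 correlated best with the wild type array of the same number, and knockout replicate 3 with wild type replicate 4. Whether the numbers pair the mice stayed unsettled, and the main fit did not pair them. Array weights also gave 0 lower. With 1 array left out, members at an unadjusted p under 0.05 ran from 1 to 3 higher and from 0 to 1 lower, and non-overlapping members lower from 0 to 1. Omd could not be fitted with dim probe sets filtered out. The member median ran from 0.081 to 0.16 over all alternatives. The list medians that moved by more than 1 SD between arrays were sugar chain synthesis (0.0063 without knockout replicate 2), Schwann cells (-0.031 without knockout replicate 3), endothelium (-0.25 without knockout replicate 3) and pericytes (-0.27 to -0.12 over arrays left out). With 1 array left out the medians of macrophage, slow fibre, endothelial and satellite cell genes kept their sign and stayed within 1.5 times, from 0.54 to 0.66, 0.42 to 0.80, -0.35 to -0.25 and 0.078 to 0.11; the wider ranges of the other lists stand with their medians above. Bgn overlapped between the genotypes under quantile normalization and median centring. The causes were not tested. With 4 against 3 arrays and no scanner background, differences in dim genes such as Omd are the least certain.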
